A study of Mus musculus with 2 samples.

Results

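The alpha- and beta-globin loci were examined in ATAC-seq peak lists of mouse megakaryocytes, which shed platelets from the bone marrow. ATAC-seq uses a transposase that cuts accessible DNA, so a peak marks open chromatin. The members were 7 genes, namely Hba-a1, Hba-a2, Nprl3, Hbb-bs, Hbb-bt, Hbb-bh1 and Hbb-y, chosen as globin genes and the gene whose introns hold alpha-globin enhancers. Their open regions were all peaks overlapping a gene body or lying within 100 kb of it, on the mm10 build with GENCODE M21 gene models. The series held 1 group of 2 biological replicates of primary megakaryocytes from adult male C57BL/6J mice aged 5 to 6 weeks, with 50000 cells in each library. Both replicates carry 1 donor record, sequencing instruments are named for replicate 2 only, and no treatment, mutant or other cell type was included. The loci held 43 regions of 79800 in replicate 1 and 42 of 81707 in replicate 2, and 36 of the 69539 shared regions.

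Alpha- and beta-globin are the protein chains of haemoglobin, which erythroid cells make in large amounts. Megakaryocytes and erythroid cells arise from a common progenitor and share transcription factors such as GATA1 and TAL1. In mouse erythroid cells the adult genes Hba-a1, Hba-a2, Hbb-bs and Hbb-bt are used after birth, whereas Hbb-y, Hbb-bh1 and Hba-x belong to the embryo. Enhancers in introns of Nprl3, which itself encodes a subunit of the GATOR1 inhibitor of mTORC1, drive the alpha genes, and the locus control region upstream of Hbb-y drives the beta genes.

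Sequences of 4 globin promoters are shown first because they compare the adult genes, which carried open regions, with an embryonic gene that carried none. They are the 250 bases before the RefSeq start on the GRCm38.p6 build, which is mm10, written 5′ to 3′ on the strand of the gene. Capitals mark 3 motifs searched on both strands, with overlapping matches kept. They are the letters CCAAT of the box of that name, the longer run CCACCC of a CACCC box, and a GATA site, which may be read as AGATAA or as its variant TGATAA in these promoters.
Hba-a2 promoter, chr11:32296242-32296491, plus strand: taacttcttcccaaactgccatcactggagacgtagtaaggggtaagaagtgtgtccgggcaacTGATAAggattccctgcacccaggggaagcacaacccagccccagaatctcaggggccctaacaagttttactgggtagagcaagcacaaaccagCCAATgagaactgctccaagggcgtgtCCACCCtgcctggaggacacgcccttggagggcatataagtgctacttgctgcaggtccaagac
Hbb-bs promoter, chr7:103827929-103828178, minus strand: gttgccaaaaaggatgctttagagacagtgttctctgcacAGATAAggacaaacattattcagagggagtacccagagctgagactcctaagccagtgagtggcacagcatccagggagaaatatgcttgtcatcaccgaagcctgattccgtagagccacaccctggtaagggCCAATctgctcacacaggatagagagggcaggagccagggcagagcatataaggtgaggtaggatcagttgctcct
Hbb-bt promoter, chr7:103813924-103814173, minus strand: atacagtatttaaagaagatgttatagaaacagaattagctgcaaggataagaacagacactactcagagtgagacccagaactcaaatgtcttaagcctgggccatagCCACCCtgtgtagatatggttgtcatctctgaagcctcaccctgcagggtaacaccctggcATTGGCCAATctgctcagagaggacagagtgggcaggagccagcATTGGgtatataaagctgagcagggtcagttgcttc
Hbb-y promoter, chr7:103853208-103853457, minus strand: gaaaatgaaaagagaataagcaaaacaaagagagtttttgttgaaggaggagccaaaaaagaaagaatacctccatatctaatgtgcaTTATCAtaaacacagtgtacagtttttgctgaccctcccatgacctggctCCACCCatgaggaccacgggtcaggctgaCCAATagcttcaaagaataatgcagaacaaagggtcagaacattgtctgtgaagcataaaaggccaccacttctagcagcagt

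The 250 bases before Hba-a1 were identical to those before Hba-a2 over 247 of 247 aligned bases, so 1 of the pair is shown. In Hba-a2 the first base of the GATA match lay 186 bases before the RefSeq start, that of CCAAT 91 and that of CCACCC 64. Hbb-bs held a GATA match 210 bases and a CCAAT match 76 bases before its start. It held no CCACCC match, but its printed sequence holds the shorter run CACCC, uncapitalised. The search thus does not show that Hbb-bs lacks a CACCC box. Hbb-bt held a CCACCC match at 141 bases and no match to the GATA letters as searched. It also held 3 CCAAT matches, at 80, 75 and 36 bases, the first and second of which adjoin on opposite strands. Hbb-y, the embryonic gene, held a CCAAT match at 83 bases, a CCACCC match at 112 bases and a GATA match at 162 bases. All 3 motifs were thus matched at Hbb-y, which had no open region. Hbb-bs and Hbb-bt, which had open regions, each lacked a match to 1 of them. Among 32851 RefSeq promoters of the same length, CCAAT occurred in 33.8%, CCACCC in 28.1% and the GATA letters in 16.6%.

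Sequences of 8 further regions, 7 of them distal and 1 near an internal Nprl3 start, are shown because they hold the motifs discussed with the results, those of erythroid factors and of CTCF, a protein that binds at boundaries between chromatin domains. Each is the 151 bases centred on the mean summit of both replicates, from the plus strand of GRCm38.p6. Capitals mark motifs searched on both strands, among them the GATA site defined above and the CTCF core. CCACCC, capitalised in the promoters above, is left in lower case here, although several of these regions hold it. An E-box was read as CAGATG or as the other common form CAGCTG in this search. An AP-1 site was read as TGANTCA, and an NF-E2 site as the longer GCTGANTCA, so every NF-E2 match is also an AP-1 match. Alpha-locus distances are from the GENCODE start of Hba-x and beta-locus distances from that of Hbb-y, since these are the first globin genes of each cluster in the direction of transcription.
Nprl3 intron, 30.6 kb before Hba-x, chr11:32245744-32245894: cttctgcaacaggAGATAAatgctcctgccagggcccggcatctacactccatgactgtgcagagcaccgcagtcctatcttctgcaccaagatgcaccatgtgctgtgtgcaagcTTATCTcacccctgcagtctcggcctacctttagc
Nprl3 intron near an internal start, 25.3 kb before Hba-x, chr11:32250983-32251133: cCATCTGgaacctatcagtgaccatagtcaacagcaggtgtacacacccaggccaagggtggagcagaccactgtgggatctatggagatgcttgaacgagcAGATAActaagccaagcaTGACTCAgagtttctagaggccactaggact
Intergenic, 6.07 kb before Hbb-y, chr7:103859215-103859365: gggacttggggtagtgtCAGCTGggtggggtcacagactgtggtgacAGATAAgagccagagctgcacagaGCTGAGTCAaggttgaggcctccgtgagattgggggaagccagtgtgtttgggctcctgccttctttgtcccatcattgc
Intergenic, 7.90 kb before Hbb-y, chr7:103861041-103861191: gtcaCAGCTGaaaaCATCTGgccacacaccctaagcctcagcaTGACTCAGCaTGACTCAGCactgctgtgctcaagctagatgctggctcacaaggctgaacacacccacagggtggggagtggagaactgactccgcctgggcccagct
Intergenic, 17.7 kb before Hbb-y, chr7:103870813-103870963: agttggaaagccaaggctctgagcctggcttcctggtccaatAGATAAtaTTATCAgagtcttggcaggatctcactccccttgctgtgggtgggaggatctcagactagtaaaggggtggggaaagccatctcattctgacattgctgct
Intergenic, 3′ of Hbb-bt, chr7:103812285-103812435: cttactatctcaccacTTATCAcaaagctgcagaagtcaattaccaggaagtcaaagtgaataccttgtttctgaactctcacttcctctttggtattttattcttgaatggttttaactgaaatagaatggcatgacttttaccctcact
Intergenic, 114 kb before Hba-x, chr11:32162275-32162425: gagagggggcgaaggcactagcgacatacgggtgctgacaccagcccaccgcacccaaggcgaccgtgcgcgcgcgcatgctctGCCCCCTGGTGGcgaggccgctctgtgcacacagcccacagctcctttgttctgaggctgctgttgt
Intergenic, 60.1 kb after the Hbb-y start, chr7:103793067-103793217: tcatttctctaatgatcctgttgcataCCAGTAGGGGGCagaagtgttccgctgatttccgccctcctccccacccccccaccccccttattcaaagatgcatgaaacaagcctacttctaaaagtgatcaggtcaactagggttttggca

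The lists themselves were broadly alike in the 2 libraries. A shared region is the union of peaks that overlap between the replicates by at least 1 bp, and its fold enrichment is the ratio over local background that the authors deposited, given in each replicate and as mean ± SD (n = 2). All 36 shared regions of the loci differed between the replicates by less than 1.5-fold, and replicate 2 was higher in 27 of them. The number of reads is unknown, so no depth or counting interval can be given. In a bulk library, an open region in some of the cells cannot be told apart from a weaker opening in all of them.

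Promoters of markers of the labelled cell type were only partly open. A shared promoter region, meaning one no more than 500 bp from a transcript start, was present at 59.8% of 21755 protein-coding genes. Of 18 megakaryocyte markers, 7 (38.9%) had one, including the integrin gene Itga2b at 13.5 ± 0.584 and Vwf at 9.39 ± 0.348, while the platelet glycoprotein genes Gp1ba and Gp9 and the chemokine gene Ppbp were among those with none. Of 16 erythroid markers, 10 (62.5%) had one, close to the share of all genes, with Tfrc, the transferrin receptor gene, at 14.2 ± 0.614, whereas the erythroid factor gene Klf1, the haem synthesis gene Alas2 and the anion exchanger gene Slc4a1 had none. Without a promoter region, Gp9 and Klf1 each still had 1 shared region in the gene body, whereas Gp1ba, Ppbp, Alas2 and Slc4a1 had none there. Of 12 neutrophil and monocyte markers, 11 (91.7%) had a shared promoter region, at 4.70 to 12.2. The part of other cell types in the globin regions was not tested.

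Adult globin promoters carried open regions and embryonic ones carried none. Of the 6 globin members, 4 had a shared promoter region, against 59.8% of protein-coding genes, and these were the adult genes Hba-a1, Hba-a2, Hbb-bs and Hbb-bt. The embryonic genes Hbb-bh1 and Hbb-y had none in either replicate. Over all 7 members, 5 had a shared region in the gene body, against 68.4% of protein-coding genes. With so few members these shares are descriptions and carry no test.

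Hba-a1, an adult alpha gene at chr11:32283511-32284465, had a promoter region of 6.53-fold in replicate 1 and 5.69-fold in replicate 2, or 6.11 ± 0.590. Hba-a2, the second adult alpha gene at chr11:32296489-32297298, had 4.53-fold in replicate 1 and 5.83-fold in replicate 2, or 5.18 ± 0.921. The replicates gave the opposite order for these 2 genes, so their levels do not differ beyond the spread. Hbb-bs, an adult beta gene at chr7:103826534-103828096, had 7.0-fold and 7.36-fold, or 7.18 ± 0.249. Hbb-bt, the other adult beta gene at chr7:103812524-103813996, had 5.69-fold and 6.72-fold, or 6.21 ± 0.727. Hbb-bs was above Hbb-bt in both replicates, although these values belong to summits inside the genes, and at the summits just before the RefSeq start the order differed between the replicates. All 4 genes lay under 8.66, the lower quartile of open protein-coding promoters, whose median was 11.5.

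Nprl3, at chr11:32225628-32267707 on the minus strand, had the strongest promoter of the members, with 13.8-fold in replicate 1 and 14.4-fold in replicate 2, or 14.1 ± 0.418. This was above the median of open protein-coding promoters, and the values of the 2 replicates stood above every adult globin value. Hbb-bh1 at chr7:103841637-103843164 and Hbb-y at chr7:103851749-103853216 lay between open regions on both sides, with none in their bodies.

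**Figure D1:**
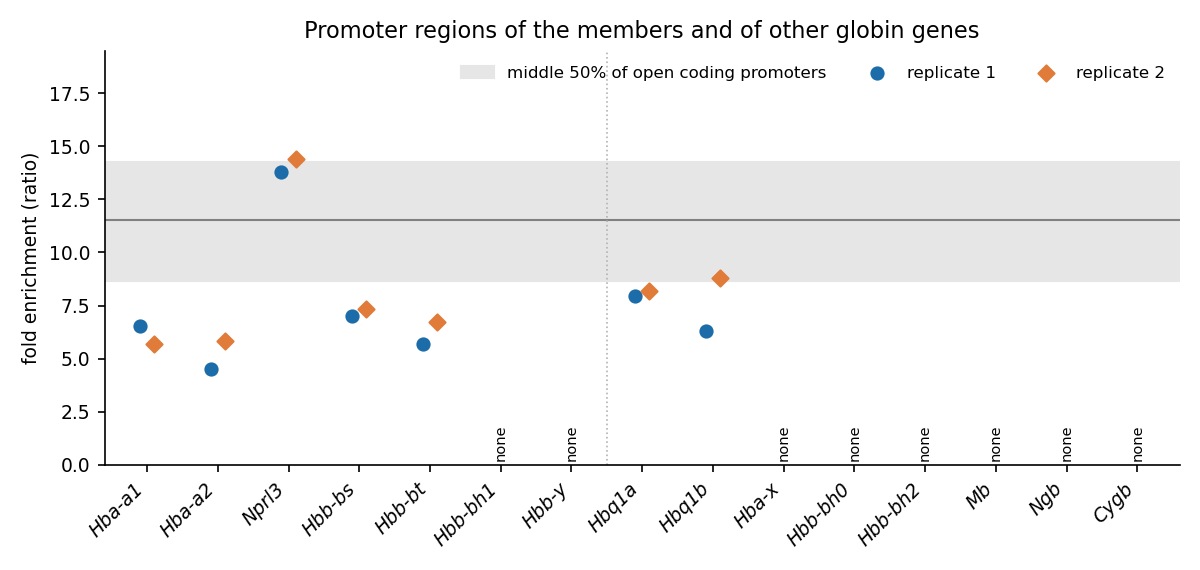
Fold enrichment (ratio, linear axis) of the promoter region of each member and, right of the dotted line, of other globin genes, with 1 point per replicate; the grey band is the middle 50% of open protein-coding promoters and the grey line their median. The adult globin genes sit at 4.53 to 7.36, below the band, and Nprl3 sits at 13.8 and 14.4. The Hbb-bs and Hbb-bt points are the strongest summits of their regions, which lie in an intron of each gene. Genes marked none had no shared promoter region.

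Among the other globin genes, those with an open promoter lay at the alpha cluster. Hbq1a and Hbq1b, the theta-globin copies, had promoter values of 8.07 ± 0.151 and 7.54 ± 1.75, and Hbq1a had another region of 4.01 ± 0.0747 in its body. The embryonic gene Hba-x had no shared promoter region, although the Nprl3 promoter lies 8.76 kb before its start. At the beta cluster the coding gene Hbb-bh2 and the pseudogene Hbb-bh0 had none. Myoglobin (Mb), neuroglobin (Ngb) and cytoglobin (Cygb), globin genes that lie elsewhere in the genome and are not part of haemoglobin, also had none.

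The adult genes are near-identical copies, which bears on how reads can be placed. Hba-a1 and Hba-a2 were 99.9% identical over 794 aligned bases of the gene body. Only 3.77% of 36-base words in the Hba-a1 body and 4.44% in the Hba-a2 body occurred once in the genome, and of 100-base words 13.1% and 17.4%. The whole Hba-a2 promoter region held no 100-base word that is unique, whereas 21.7% of those in the Hba-a1 region were. Open calls and values at these 2 genes are therefore uncertain as to which copy they come from. The theta copies Hbq1a and Hbq1b were 95.6% identical over 250 aligned bases before the start. In their promoter regions 56.9% and 65.2% of 36-base words were unique, and 97.8% and 98.2% of 100-base words. How far their 2 values are separate thus depends on the read length, which is not given in the sources used here.

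The beta copies were less alike before the gene than within it. Hbb-bs and Hbb-bt were 95.8% identical over 1466 aligned bases of the gene body and 73.3% over 243 aligned bases before the start. Of 36-base words, 32.2% were unique in the Hbb-bs body and 28.1% in the Hbb-bt body, and 39% and 37.3% in the open regions at these genes. Within 500 bp of the start, 80.8% were unique at Hbb-bs and 71.7% at Hbb-bt. Values inside these 2 genes are thus also uncertain as to their copy. At the embryonic genes Hbb-bh1 and Hbb-y, 100% of 36-base words were unique, both in the body and within 500 bp of the start.

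Summits within the adult genes lay at different places in the alpha and beta copies. At Hba-a1 the strongest summit was 112 bp before the RefSeq start in replicate 1 and 83 bp before it in replicate 2. At Hba-a2 it was 77 bp before the start in replicate 1 and 58 bp in replicate 2. These strongest alpha summits thus fell just before the RefSeq start, in the stretch printed above that holds CCAAT and CCACCC. Hba-a1 had a weaker summit in replicate 1, of 2.72-fold, 567 bp before that start.

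At Hbb-bs the strongest summit lay 539 bp beyond the RefSeq start in replicate 1 and 554 bp in replicate 2, in an intron. A weaker summit, of 5.04-fold, lay 72 bp before that start in replicate 1, and one of 4.28-fold lay 123 bp before it in replicate 2. Replicate 2 had further Hbb-bs summits 42 bp and 326 bp beyond the start, at 4.48-fold and 4.61-fold. At Hbb-bt the strongest summit lay 553 bp beyond the start in replicate 1 and 545 bp in replicate 2, with weaker ones of 4.41-fold and 4.75-fold, 55 bp and 61 bp before it. Hbb-bt had another summit 334 bp beyond the start in replicate 1 and 255 bp in replicate 2, at 4.37-fold and 4.40-fold. The strongest summits of the 2 beta genes stand in the same repeated stretch, since the 151 bases centred on each share an identical run of 150 bases.

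**Figure D2:**
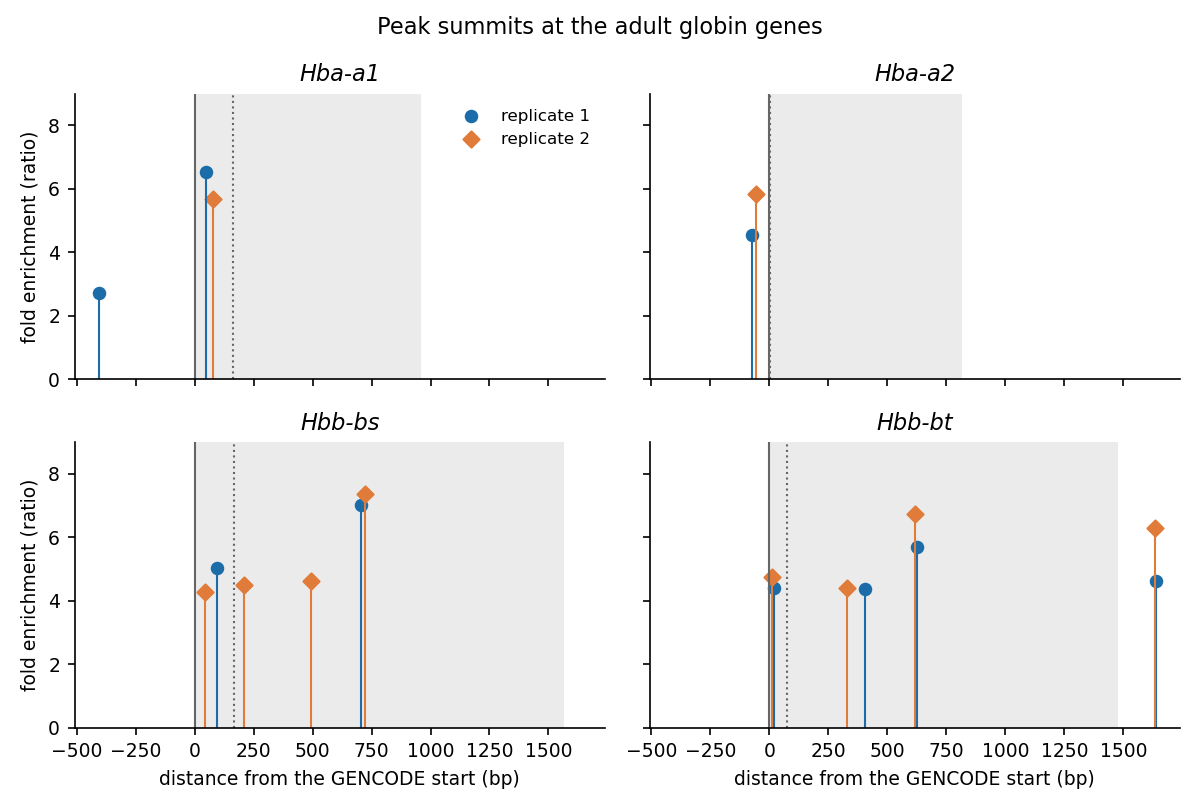
Fold enrichment (ratio) of every peak summit at the 4 adult globin genes against distance in bp from the GENCODE start, positive in the direction of transcription; shading is the gene body and the dotted line the RefSeq start. The strongest alpha summits, of 4.53 to 6.53, stand by the start. The strongest beta summits, of 5.69 to 7.36, stand inside the gene in both replicates. A further Hba-a1 summit of 2.72, in replicate 1, stands 406 bp before the GENCODE start.

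At the alpha locus as a whole, 24 shared regions lay in a window of 272 kb, a density of 8.83 per 100 kb. They comprised 12 promoter regions (any part within 1 kb of a transcript start), 4 intronic and 8 intergenic regions. Their mean fold enrichment ran from 3.89 to 16.4, with a median of 7.39. Nprl3 had 24 shared regions within 100 kb and Hba-a1 and Hba-a2 had 22 each, against a median of 12 and an upper quartile of 18 over protein-coding genes. Neighbouring windows overlap, so these members count mostly the same regions.

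The body of Nprl3 held 6 shared regions, the 92.1 percentile of protein-coding genes (with ties at their mid-rank), whose median was 1. Nprl3 is also longer than most, at 42080 bp against a median of 17414 bp. The 6 regions fell into a strong and a weak set. The strong set, above 10-fold, held the Nprl3 promoter, a region of 10.8 ± 0.00588 at the start of the DNA repair gene Mpg, which overlaps the end of Nprl3, and a region of 12.1 ± 1.5 near an internal Nprl3 start, 37.7 kb before Hba-x.

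The weak set, under 5-fold, lay between the region 37.7 kb before Hba-x and the Nprl3 promoter. The intronic region 30.6 kb before Hba-x, printed above, had 4.17-fold in replicate 1 and 4.79-fold in replicate 2, or 4.48 ± 0.434. The intronic region 29.1 kb before Hba-x had 4.60-fold and 5.13-fold, or 4.87 ± 0.375. The region 25.3 kb before Hba-x, also printed, had 4.87-fold and 4.27-fold, or 4.57 ± 0.428.

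These 3 regions ranked low. The 2 intronic ones stood above 12% and 17.5% of all shared distal regions, and the one near an internal start above 12.6% of promoter regions. A further region 20.1 kb before Hba-x was called in replicate 2 alone, at 3.57-fold, and was singled out after its value was seen. The region at 30.6 kb held 2 GATA matches, each part of a TAL1-GATA composite, in which part of an E-box stands at a set distance from GATA. The region at 25.3 kb held 1 match each for GATA, E-box and AP-1.

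Outside Nprl3, the strongest alpha-locus region was the promoter of Snrnp25, a spliceosome protein gene, at 16.4 ± 0.169. A region near an internal start of Rhbdf1, an inactive rhomboid protease gene, stood at 8.92 ± 0.353. It was the only shared region in the body of that gene. On the other side of the cluster, an intergenic region 28.3 kb beyond the Hba-a2 start had 14.3-fold in replicate 1 and 13.6-fold in replicate 2, or 13.9 ± 0.493, above 94.3% of distal regions. Another followed 34.7 kb beyond the Hba-a2 start at 10.4 ± 0.546. In the opposite direction, regions 114 kb and 135 kb before Hba-x had 10.8 ± 2.24 and 7.50 ± 1.81, and the first of these, printed above, held a CTCF core.

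**Figure D3:**
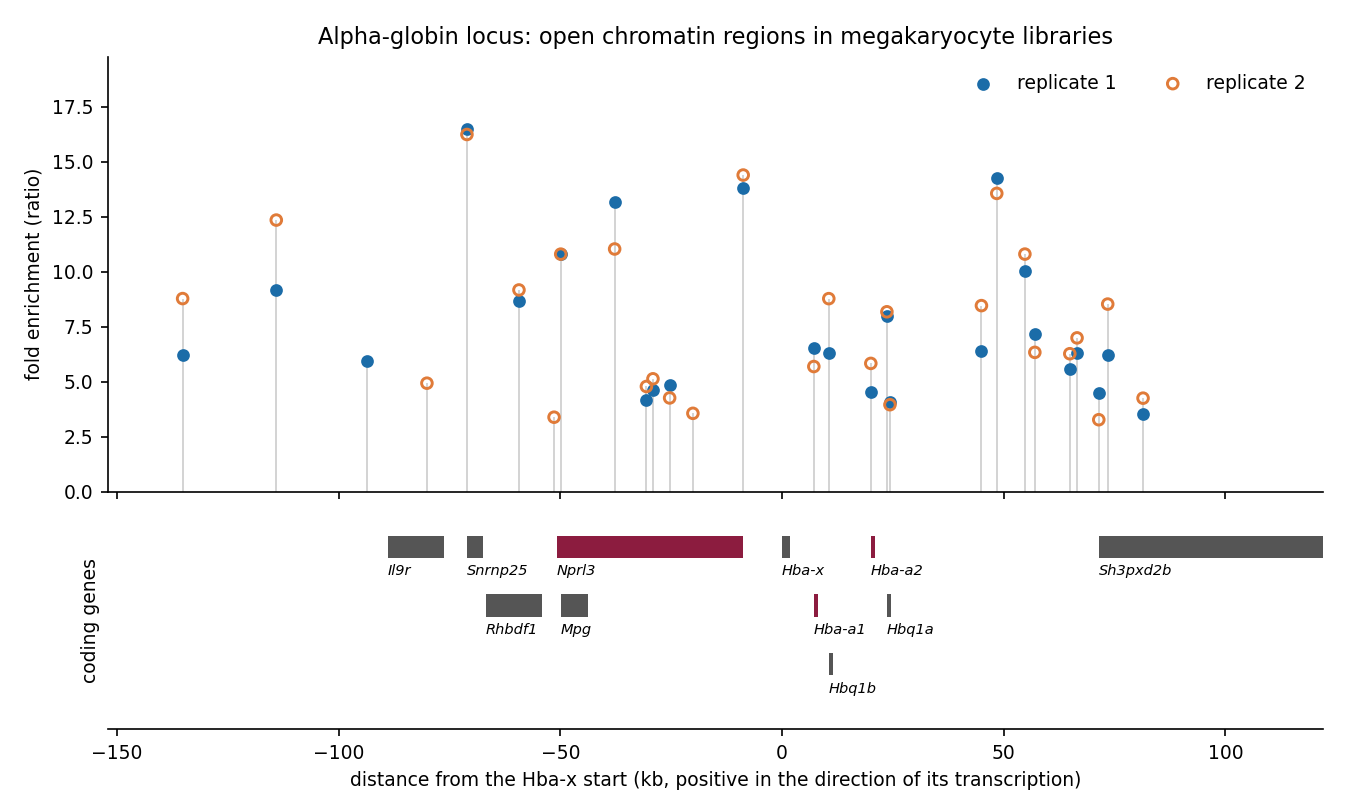
Fold enrichment (ratio) of each region against distance in kb from the Hba-x start, with filled points for replicate 1, open points for replicate 2 and a single point where a region was found in 1 replicate; boxes below are protein-coding genes, with members in dark red. The 3 weak Nprl3 regions of 4.48 to 4.87 stand between the strong ones of 12.1 and 14.1, and the region of 13.9 stands beyond the globin genes.

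At the beta locus, 12 shared regions lay in 241 kb, or 4.99 per 100 kb, of which 10 were intergenic and 2 were the adult promoters. Their mean fold enrichment ran from 4.27 to 12.4, with a median of 6.51. Hbb-bs and Hbb-bt had 11 shared regions within 100 kb, and Hbb-bh1 and Hbb-y had 12, close to the median of 12 for protein-coding genes. Of the 18 protein-coding genes in the window, 13 were olfactory receptor genes, and none of these had a shared promoter region. At the alpha locus, 9 of 11 protein-coding genes had one, Il9r and Hba-x being the exceptions. The share over all protein-coding genes was 59.8%.

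A cluster of regions stood upstream of Hbb-y, in the position of the locus control region. Of the 7 regions within 25 kb of the Hbb-y start on that side, 4 were shared and 3 were found in 1 replicate. The strongest, 7.90 kb before Hbb-y and printed above, had 10.1-fold in replicate 1 and 10.5-fold in replicate 2, or 10.3 ± 0.281, above 79.0% of distal regions. It held 2 NF-E2 matches in tandem and 2 E-box matches.

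Its neighbour 8.49 kb before Hbb-y had 6.66-fold and 6.73-fold, or 6.69 ± 0.0549. The regions 6.07 kb and 17.7 kb before Hbb-y, which were singled out after their values were seen, had 5.53 ± 0.422 and 5.93 ± 0.00682. The first of these held E-box, GATA and NF-E2 matches and the other a pair of GATA matches. The 4 shared regions spanned 11.6 kb.

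The regions found once were weaker. In replicate 1 alone, a region of 3.38-fold lay 12.7 kb before Hbb-y, and one of 2.96-fold lay at the start of the pseudogene Hbb-bh3, 19.4 kb after the Hbb-y start. In replicate 2 alone, regions of 5.51-fold and 4.09-fold lay 20.1 kb and 21.4 kb before Hbb-y. Over both loci, 11 regions were found in 1 replicate, at 2.96 to 5.92, with a median of 3.55, against 6.86 for shared ones. Their absence from the other list is not evidence of closed chromatin, as the depth is unknown.

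Beyond the cluster, the strongest beta-locus region lay 89.7 kb before Hbb-y, among olfactory receptor genes, with 12.1-fold in replicate 1 and 12.7-fold in replicate 2, or 12.4 ± 0.450, above 89.7% of distal regions. A region 60.0 kb before Hbb-y had 6.33 ± 1.19. On the adult side, the region 3′ of Hbb-bt, printed above, had 4.62-fold and 6.28-fold, or 5.45 ± 1.18, and held a TAL1-GATA composite. Further regions stood 46.1 kb and 60.1 kb after the Hbb-y start, at 8.66 ± 0.940 and 6.96 ± 0.630, and the second of these, printed above, held a CTCF core. A region of 3.55-fold in replicate 1 and 4.11-fold in replicate 2 lay 0.15 kb outside the window and was not counted.

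**Figure D4:**
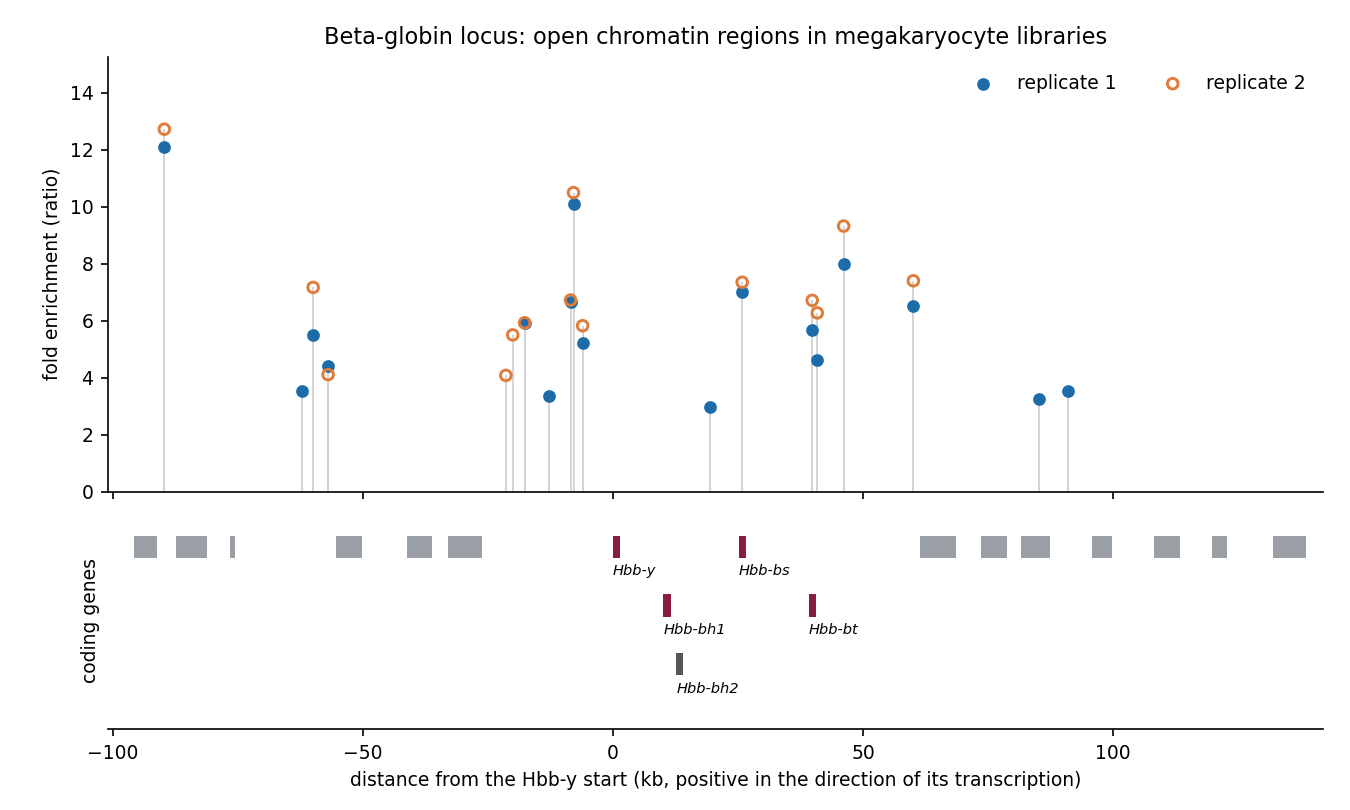
Fold enrichment (ratio) of each region against distance in kb from the Hbb-y start, with filled points for replicate 1, open points for replicate 2; boxes below are protein-coding genes, with members in dark red and olfactory receptor genes in light grey. The cluster before Hbb-y reaches 10.3, no shared region stands on Hbb-y or Hbb-bh1, and the outermost region on the left reaches 12.4.

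Motifs of erythroid and megakaryocyte factors were counted within 100 bp of the summits of the 22 shared distal regions. GATA letters occurred in 13 of 22 (59.1%), against 14.9% of all 48720 shared distal regions, and were found in 5 of 12 at the alpha locus and 8 of 10 at the beta locus. The TAL1-GATA composite occurred in 5 (22.7%) against 1.91%, of which 4 were at the beta locus. NF-E2 letters occurred in 3 (13.6%) against 2.45%, and AP-1 letters in 5 (22.7%) against 10.6%. CCACCC, bound by KLF factors, occurred in 8 (36.4%) against 18.2%, and the E-box in 9 (40.9%) against 28.1%.

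Other motifs stood nearer to or below the share of all distal regions. ETS letters (CNGGAAG) occurred in 7 (31.8%) against 27.5%, the CTCF core in 2 (9.09%) against 6.94%, and RUNX letters (TGTGGTT) in 1 (4.55%) against 10.3%. The CTCF core was matched as an exact pattern, so near matches were not counted. A region without a match may still hold a similar site. Over whole regions, ETS letters turned to 40.9% against 43.3%, and the E-box stood at 50% against 49.3%. These are counts of letters over 22 regions, with no test, and a match is not evidence of binding. The median GC content of the windows was 51.0% at the globin loci and 49.3% over all distal regions. Distal regions with GATA letters had a median of 6.76-fold and those without 7.43-fold at the alpha locus, and 6.13-fold with and 11.4-fold without at the beta locus, where only 2 regions lacked them.

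**Figure D5:**
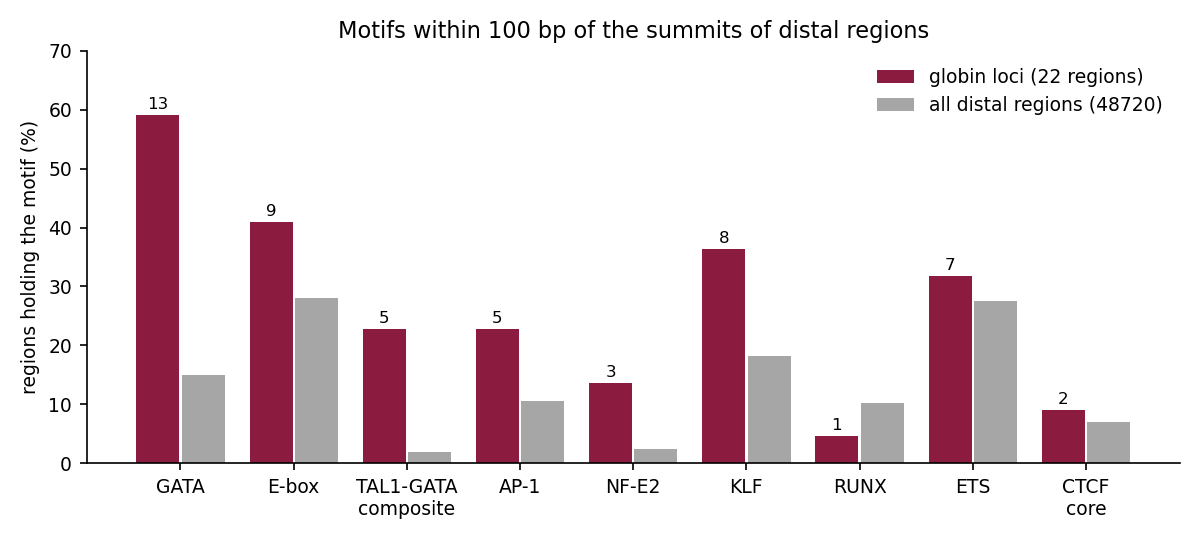
Share (%) of shared distal regions holding each motif within 100 bp of the summit, at the globin loci on the left of each pair and over all distal regions on the right, with the number of globin regions above the bar. GATA stands at 59.1% against 14.9% and the TAL1-GATA composite at 22.7% against 1.91%, while RUNX stands at 4.55% against 10.3%.

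Genes that regulate globin expression were mostly open. Of 20 such genes, 18 (90%) had a shared promoter region, against 59.8% of protein-coding genes, with a median of 7.55 among those, below the 11.5 of all open protein-coding promoters. The highest were the adaptor gene Ldb1 at 14.1 ± 0.567, the GATA1 cofactor gene Zfpm1 at 10.9 ± 2.31 and Nfe2, which encodes the large subunit of NF-E2, at 9.89 ± 0.20. The 2 without one were Klf1, whose product binds the CACCC box of the adult beta promoter, and Ldb2.

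Stricter lists held fewer of these regions. In the lists of each library thresholded on the irreproducible discovery rate (IDR), 11 shared regions remained at the alpha locus, 3 at the beta locus and 3 in Nprl3, and Hbb-bs was the only globin member with a promoter region. The 3 weak Nprl3 regions were not in those lists, whereas the region 7.90 kb before Hbb-y was. The conservative IDR list of the pooled libraries held 19 alpha-locus and 10 beta-locus regions, among them 4 in Nprl3, including the weak one 29.1 kb before Hba-x at 5.56-fold, and the promoters of Hba-a1, Hbb-bs and Hbb-bt.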

How the data were processed

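ATAC-seq peak lists of 2 megakaryocyte libraries were used, on mm10 per the labels. Which peak caller and aligner made them is not given in the sources used here. The deposited column 7 was taken as fold enrichment over local background, a ratio, and column 8 as the −log10 p-value, following the narrowPeak layout, because the files carry no header. No scaling between libraries is stated, so values were compared as deposited, and 0 columns of values were left without a sample. The main lists were the pseudoreplicated peaks of each library.

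Overlapping peaks of a list were joined under the value and summit of the strongest, on chromosomes 1 to 19 and X, and regions overlapping by at least 1 bp were called shared. A region any part of which lay within 1 kb of a GENCODE M21 start was classed as promoter, and the rest by the place of the summit. All but the promoter class were called distal. A promoter region of a gene is a shared region no more than 500 bp from one of its starts. Percentiles are among shared regions of the same class. Motifs and words were read from GRCm38.p6, whose chromosome lengths hold every region, and promoters from the RefSeq table, which matched 7 of the 8 genes looked up, all but Hbb-bh1. Scripts used Python 3.11.15, pandas 2.3.3, NumPy 2.4.6 and pysam 0.24.0, and the overlap and motif code was checked on simulated data.

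Named were the 7 members, all shared regions in a member or within 5 kb, the 6 strongest others at each locus, any region in 1 replicate within 25 kb of a globin start, and genes whose start holds one. The members and lists were chosen with earlier results of these data known. The replicates share 1 donor record, so SDs measure the spread between 2 libraries. With 1 group there was no comparison between groups and no test. Alternatives were other deposited lists, 50% reciprocal overlap, at least 4-fold enrichment, other windows, −log10 p in place of fold enrichment, whole regions for motifs, and each replicate left out.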

Additional observations from a re-analysis of the deposited data

How the results depend on the processing

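In the IDR-thresholded lists of each library, the shared regions numbered 11 at the alpha locus, 3 at the beta locus and 3 in Nprl3, against 24, 12 and 6 in the main lists. In the same lists, 1 globin member had a promoter region, against 4, and 2 members had a region in the body, against 5. In the pooled replicated-peaks list the beta locus held 19 regions. The median percentile of the named regions was 38.0 by −log10 p-value, against 46.3 by fold enrichment. The cause of these differences was not tested. Leaving out either replicate gave 26 to 28 alpha-locus, 14 to 17 beta-locus and 7 to 8 Nprl3 regions, with the same 4 promoters. All other alternatives for these counts stayed within 1.5 times the main value. Of the values of single regions, 32 moved by more than the spread between replicates, all in the 2 pooled lists. There all 26 and 21 named shared regions present were higher, by 1.05 to 1.17 times. The other lists held the same peak values, and leaving out 1 replicate always shifts a mean by less than its SD. The lack of moves in those alternatives is therefore no evidence of stability. Over whole regions in place of 100 bp windows, GATA letters occurred in 68.2% of distal globin regions and 32.7% of all distal regions, the TAL1-GATA composite in 22.7% and 4.28%, AP-1 letters in 22.7% and 18.6%, and the E-box in 50% and 49.3%. ETS letters changed side, with 40.9% at the globin loci and 43.3% over all distal regions. No paired analysis was possible because there is 1 group and no comparison. The depth is unknown, which limits what the absence of a peak can show.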
